A study of Mus musculus with 32 samples.

Results

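The Obox genes (oocyte-specific homeobox) and their pseudogenes were followed through the mouse egg and 2-cell embryo. Members were all rows of the authors' FPKM table whose gene symbol starts with Obox, 55 of 54532 rows. Of these, 7 are coding genes (Obox1, Obox2, Obox3, Obox5, Obox6, Obox7 and Obox8), 39 are Obox4 pseudogenes (Obox4-ps), 8 are Obox3 pseudogenes (Obox3-ps) and 1 is an Obox6 pseudogene. Symbols and identifiers matched the GENCODE annotation, in which Obox4-ps35 is classed as a long intergenic RNA. On build mm10, 53 members lie on chromosome 7 between 14331436 and 15839678, a stretch of 1.51 Mb, and Obox3-ps8 and Obox6-ps1 lie on chromosome 17.

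RNA was sequenced from 32 single metaphase II eggs and single 2-cell embryos with a kit the labels spell SMRT-seq v4, which copies and amplifies the RNA of 1 cell or embryo. The groups were 3 WT eggs, 3 eggs labelled Trp53 KO, 8 WT and 6 Trp53 MZ-KO early 2-cell embryos, and 6 WT and 6 Trp53 MZ-KO late 2-cell embryos. The WT controls came from Trp53 flox/flox animals, so they carried the floxed allele in its undeleted form. The KO allele, made with a Ddx4::Cre driver, which acts in germ cells, lacks exons 2 to 10, and MZ-KO embryos had a KO mother and a KO father. The animals had a mixed Bl6/C57 background, with no animal ages given in the sources used here. Early embryos were taken 28 to 32 hours and late embryos 48 hours after the ovulation hormone hCG, the late ones after culture in KSOM medium. The number of mothers per group is not given, so p-values measure the spread between these eggs or embryos, which may share a mother.

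Library depth ranged from 7210000 to 27600000 reads. Trp53 was at 0.311 to 1.11 FPKM in the early MZ-KO embryos against 2.60 to 9.29 in WT. In eggs it was at 6.33 to 9.81 FPKM in those labelled KO and 6.16 to 10.2 in WT, and in late embryos at 1.48 to 5.39 in those labelled MZ-KO and 0.557 to 7.09 in WT. The level of Trp53 thus did not bear out the labels of the eggs and late embryos, and every genotype direction at those stages rests on the labels. It is a level of the whole gene, and reads of the deleted exons were not examined. Summed over 11 oocyte markers, the level was 3156 to 4104 FPKM in WT eggs and 502 to 733 in WT late embryos, and none of 12 cumulus and granulosa cell markers reached FPKM 1 in any library. WT early library 3 stood apart, with a median Spearman correlation of 0.808 to its group against 0.864 to 0.889 for the other WT early libraries.

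Obox proteins carry a homeodomain, a DNA-binding fold used by many regulators of development. The genes form a rodent family with many near-identical copies, expressed in oocytes and early embryos, and published work ties the family to the start of transcription from the embryo's own genome. The 2-cell stage of the mouse is when stored maternal RNA is cleared and that transcription begins.

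The promoters of coding genes are shown first. No promoter sequences were at hand for Obox6, Obox8 or the pseudogenes, so what is shared below cannot be tied to a high level in eggs. The RefSeq table (GRCm38.p6) held windows of 300 bases, from 250 before to 50 after the annotated start, for 5 members (Obox1, Obox2, Obox3, Obox5 and Obox7). In the sequences below, read 5′ to 3′ on the gene's strand, capitals mark the runs of at least 20 bases shared by Obox1, Obox3, Obox5 and Obox7.
Obox1, chr7:15547007-15547306, plus strand: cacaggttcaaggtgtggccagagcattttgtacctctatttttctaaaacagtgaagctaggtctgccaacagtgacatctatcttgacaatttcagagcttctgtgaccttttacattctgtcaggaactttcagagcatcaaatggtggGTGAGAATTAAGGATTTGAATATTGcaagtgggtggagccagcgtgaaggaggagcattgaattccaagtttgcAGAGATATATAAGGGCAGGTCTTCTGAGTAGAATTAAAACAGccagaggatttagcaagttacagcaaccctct
Obox3, chr7:15639728-15640027, minus strand: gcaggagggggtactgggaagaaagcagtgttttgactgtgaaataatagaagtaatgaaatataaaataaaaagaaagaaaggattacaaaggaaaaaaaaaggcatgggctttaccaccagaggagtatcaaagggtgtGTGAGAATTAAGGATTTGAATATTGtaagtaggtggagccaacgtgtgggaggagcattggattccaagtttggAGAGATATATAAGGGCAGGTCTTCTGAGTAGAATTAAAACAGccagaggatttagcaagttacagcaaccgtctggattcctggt
Obox5, chr7:15750120-15750419, plus strand: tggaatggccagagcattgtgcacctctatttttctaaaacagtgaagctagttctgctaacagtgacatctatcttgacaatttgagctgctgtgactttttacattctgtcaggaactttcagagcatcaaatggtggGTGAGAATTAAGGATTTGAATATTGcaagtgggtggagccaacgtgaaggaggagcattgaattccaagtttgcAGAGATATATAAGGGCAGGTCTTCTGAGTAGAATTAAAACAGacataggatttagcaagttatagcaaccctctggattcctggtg
Obox7, chr7:14659458-14659757, plus strand: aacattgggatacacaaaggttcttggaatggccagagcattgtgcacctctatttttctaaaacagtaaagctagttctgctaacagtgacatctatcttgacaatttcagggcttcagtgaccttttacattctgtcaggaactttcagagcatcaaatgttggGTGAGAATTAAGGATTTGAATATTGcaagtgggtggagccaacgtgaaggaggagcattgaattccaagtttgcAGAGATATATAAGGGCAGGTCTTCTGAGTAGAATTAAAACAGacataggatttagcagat

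The first capital run, of 25 bases, begins 84 to 110 bases before the annotated start of these 4 genes. It was found, on either strand, in 5 of 32544 promoter windows of the table, and these were Obox1, Obox2, Obox3, Obox5 and Obox7. The annotated start of Obox2 lies further upstream, so that in its window the same run begins 1 base before the start, and over their 203 aligned bases the Obox1 and Obox2 windows were 100% identical. The second run, of 42 bases, begins 10 to 36 bases before the start and holds the motif TATATAA, a form of the TATA box. These letters were present on either strand in 4 of the 5 Obox windows and in 3.22% of all windows. The exception was Obox2, whose window ends before the place the motif would take at the spacing of the other 4. Its absence there does not show that Obox2 lacks it. TAATCC, a core bound by some homeodomains, was present in the Obox3 window and in 7.06% of all windows, and TAATTG in none of the 5 and in 8.01% of all. Over the aligned bases of the windows, shared runs included, Obox3 was 81.1% to 87.8% identical to the others, and the others were 92.6% to 100% identical among themselves. Obox3 shares both runs, and its level is described after the others because its row holds reads of Obox1.

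Obox2, Obox5 and Obox7 had high levels in eggs. The rows of Obox5 and Obox7 overlap no other annotated gene, whereas most of the Obox2 row lies inside the Obox1 row, and the longest transcripts of Obox1 and Obox2 are 99.2% identical, so reads of Obox2 and Obox1 may be exchanged. Levels are in FPKM, reads relative to the genomic span of the gene and to library depth, and differences are of log2(FPKM + 1), tested with limma, in which a Benjamini-Hochberg adjusted p below 0.05 was called. From WT eggs to WT early embryos Obox2 fell steeply and Obox5 showed no detectable change. All of them were low in late embryos. The plot of coding genes by library shows each value.

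Obox2 measured 905, 602 and 605 FPKM in the 3 WT eggs and 563, 479 and 497 in the 3 eggs labelled KO. In the 8 WT early embryos it ranged from 61.5 to 127 (median 105), and in the 6 MZ-KO early embryos from 104 to 176 (median 148). It was at 1.57 to 5.03 (median 2.03) in WT late embryos and at 1.11 to 36 (median 2.76) in MZ-KO late embryos. The WT stages did not overlap at either step. Obox2 fell by 2.77 (SE 0.22, adjusted p = 2.05e-06, limma) from WT egg to WT early embryo and by 4.87 (SE 0.22, adjusted p = 1.58e-11, limma) from WT early to WT late embryo. In the labelled mutants the falls were 1.81 (SE 0.16) and 4.70 (SE 0.55).

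Obox5 measured 640, 483 and 502 FPKM in WT eggs and 495, 537 and 506 in eggs labelled KO. WT early embryos ranged from 379 to 654 (median 489) and MZ-KO early embryos from 334 to 472 (median 383). The early WT values overlapped those of the eggs, with a log2 difference of -0.13 (95% interval -0.52 to 0.25, adjusted p = 0.546, limma). In the labelled mutants Obox5 fell by 0.40 at this step (adjusted p = 0.0232, limma), a call that was lost without a filter on low genes (adjusted p = 0.0813) and without KO egg library 2 or 3 (0.0804 and 0.0617). In late embryos it was at 11.1 to 47.6 in WT (median 14.2) and at 6.64 to 36.2 in MZ-KO (median 9.79), after falls of 4.64 (SE 0.30) and 4.76 (SE 0.34) from the early stage.

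Obox7 measured 112, 87.2 and 92.0 FPKM in WT eggs and 93.7, 91.5 and 85.9 in eggs labelled KO. It ranged from 60.9 to 99.2 in WT early embryos (median 68.1) and from 62.9 to 92.7 in MZ-KO early embryos (median 80.6). The WT groups overlapped, and the egg-to-early difference of -0.41 (adjusted p = 0.0491, limma) passed the threshold narrowly. The call was lost without a filter (adjusted p = 0.127), with median-ratio scaling (-0.33, adjusted p = 0.125) and without any of the 3 WT eggs (0.0652 to 0.200) or any of 6 of the WT early libraries (1, 4, 5, 6, 7 and 8, 0.0549 to 0.0768). From early to late embryos Obox7 fell by 4.96 (SE 0.18, adjusted p = 1.76e-12, limma) in WT, to 0.512 to 2.33 FPKM, and by 4.72 (SE 0.26) in MZ-KO, to 0.902 to 4.00.

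**Figure D1:**
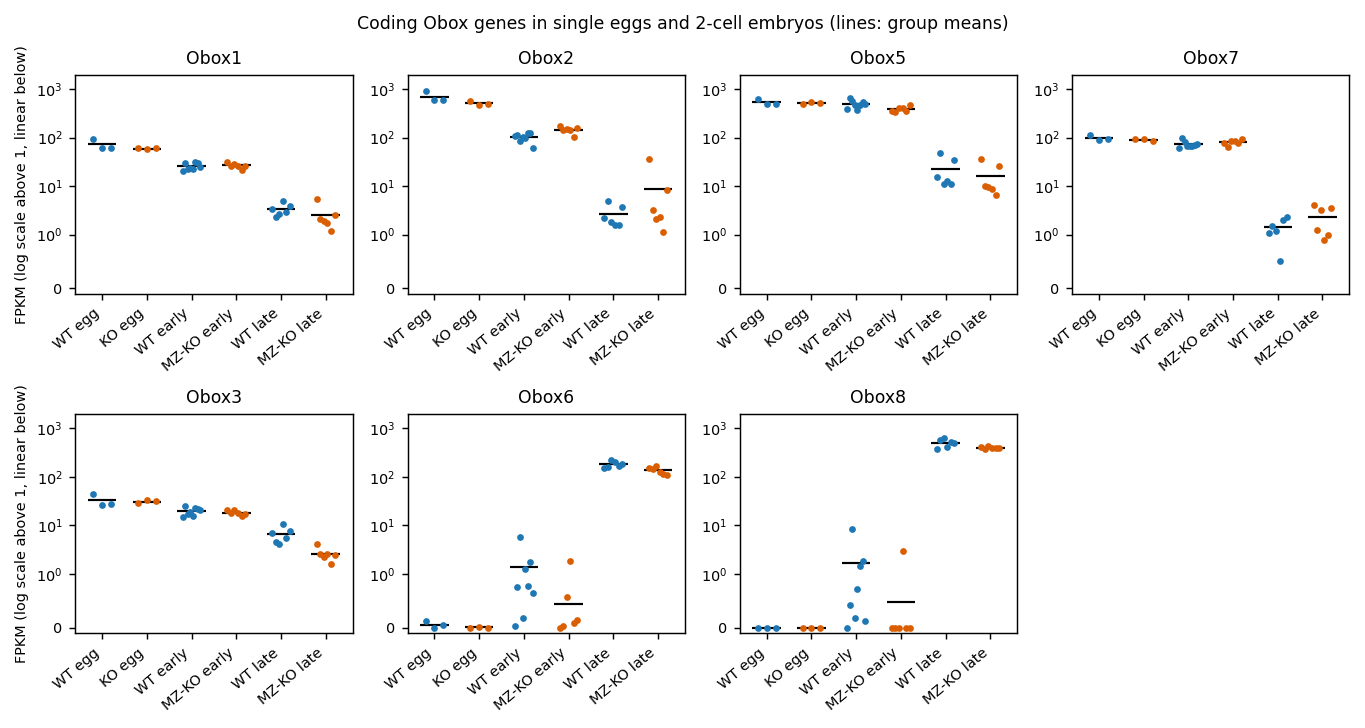
FPKM of the 7 coding Obox genes in each of the 32 libraries, on an axis that is logarithmic above 1 and linear below, with points for libraries and black lines for group means. Obox1, Obox2, Obox5 and Obox7 are high in eggs and low in late embryos, whereas Obox6 and Obox8 lie below 10 FPKM until the late stage.

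Obox6 and Obox8 showed the reverse order. Obox8 (ENSMUSG00000099216, on chromosome 7, 14331436 to 14333557, minus strand) was listed at 0 in all 6 eggs, at 0 to 8.32 FPKM in WT early embryos (median 0.570) and at 373 to 631 (median 516) in WT late embryos. In MZ-KO it was at 0 in 5 of 6 early embryos and at 2.89 in the other, then at 383 to 425 (median 396) in late embryos. Late values were far above every early value in both genotypes. The rise from early to late embryo was 7.99 (SE 0.41, adjusted p = 6.31e-11, limma) in WT and 8.33 (SE 0.30, adjusted p = 2.75e-11, limma) in MZ-KO, the largest rises among the Obox rows in both.

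Obox6 (ENSMUSG00000041583, on chromosome 7, 15833241 to 15839678, minus strand) lies at the opposite end of the cluster. It was at 0 to 0.118 FPKM in the 6 eggs, at 0.0400 to 5.80 in WT early embryos and at 0 to 1.83 in MZ-KO early embryos. In late embryos it reached 150 to 228 in WT (median 173) and 107 to 170 in MZ-KO (median 137). It rose by 6.49 (SE 0.33, adjusted p = 5.2e-11, limma) in WT and by 6.67 (SE 0.25, adjusted p = 3.25e-11, limma) in MZ-KO. The longest annotated transcripts of Obox6 and Obox8 were 71.9% identical to each other over their aligned bases and 69.3% to 80.4% identical to those of Obox1, Obox2, Obox5 and Obox7, which were 93.7% to 99.2% identical among themselves. Reads of Obox6 and Obox8 are therefore easier to place than reads of the egg-expressed genes, among which single values may include reads of a near copy.

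The rows of Obox1 and Obox3 overlap each other and several nested members. The annotated Obox1 row spans 167919 bases (on chromosome 7, 15388948 to 15556866) and contains most of Obox2 as well as Obox4-ps27, Obox4-ps28, Obox4-ps29, Obox4-ps30 and Obox3-ps6, whereas RefSeq places Obox1 at 15547257 to 15556846. The Obox3 row spans 160078 bases (15479825 to 15639902) and contains that RefSeq Obox1, whereas RefSeq places Obox3 at 15625306 to 15639777. Although the genes lie on opposite strands, the Obox3 row held nearly the same number of reads in eggs as the part of the Obox1 row outside other members, so both rows count reads without regard to strand and share them. Read counts were recovered from the steps of the FPKM values, of which all 405 low Obox values came out whole within 0.1 read.

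As deposited, Obox1 measured 94.9, 59.9 and 61.9 FPKM in WT eggs, 20.8 to 31.3 in WT early embryos and 2.31 to 4.97 in WT late embryos. The row fell by 1.43 (SE 0.18, adjusted p = 6.36e-05, limma) and then by 2.64 (SE 0.16, adjusted p = 2.75e-10, limma). Reads of Obox2 made up 55.8% to 58.7% of the row in WT eggs, 14.8% to 30.8% in WT early embryos and 1.85% to 12.8% in WT late embryos. The reads of the row outside all other Obox rows except Obox3, scaled to library depth as reads per 1e6 (RPM), were 4151 to 7031 RPM in WT eggs, 2369 to 3964 in WT early embryos and 90.4 to 180 in WT late embryos. These reads also declined at each step without overlap between the WT groups.

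As deposited, Obox3 measured 44.1, 26 and 27.8 FPKM in WT eggs, 14.7 to 24.8 in WT early embryos and 4.18 to 10.4 in WT late embryos, with falls of 0.69 (adjusted p = 0.0131, limma) and 1.49 (adjusted p = 2.12e-06, limma). The first call was lost without WT egg library 1 (-0.46, adjusted p = 0.0898). To separate Obox3 from Obox1, the reads of the Obox1 row outside other members were taken from those of the Obox3 row outside its nested pseudogenes. The net was 8.95 to 25.1 RPM in the 6 eggs, from 0.201% to 0.458% of the Obox3 row. In early embryos it was below 0 in all 14 libraries, at -147 to -2.95 in WT and -55.7 to -14.1 in MZ-KO. The Obox1 row also covers bases at lower coordinates than the Obox3 row, and their reads are taken off too.

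The net assumes that reads were counted over the whole annotated span of both rows. It covers all of the Obox3 row that the Obox1 row does not reach, of which RefSeq Obox3 is a part, and is not a measurement of Obox3 alone. In late embryos the net was above 0 in all 12 libraries. It ranged from 244 to 853 RPM in WT (median 483) and from 51.8 to 132 in MZ-KO (median 78.6), with no overlap. The Obox3 row as deposited fell from the early to the late stage, whereas the net was above every early value in both genotypes. Early values below 0 show that the subtraction takes off too much there, so the size of the step from early to late cannot be read from it. The mean in late embryos was 510 ± 216 RPM in WT and 83.2 ± 30.6 in MZ-KO (SD, n = 6 each). The subtraction was chosen after the values had been seen, and no test is given for it.

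**Figure D2:**
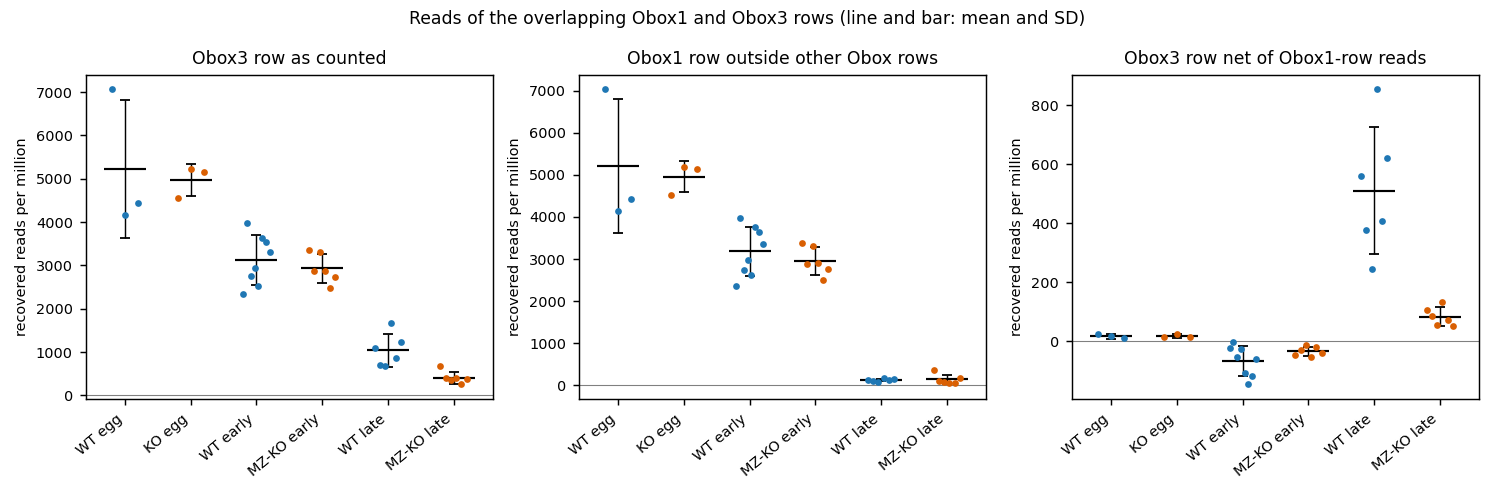
Recovered reads per 1e6 of library depth (RPM) in each library, for the Obox3 row as counted (left), the Obox1 row outside the other Obox rows except Obox3 (middle) and the Obox3 row after the reads of the Obox1 row were taken off (right), with black lines and bars for mean and SD. The left and middle panels nearly coincide in eggs and early embryos, and in the right panel only late embryos lie well above 0, with WT at 244 to 853 and MZ-KO at 51.8 to 132.

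The Obox4 pseudogenes had their peak in early embryos. Of the 39, 22 reached a group mean of 1 FPKM, and 21 of these were highest in WT early embryos. The exception was Obox4-ps35, which was highest in WT late embryos. The other 17 stayed below a mean of 1 FPKM in every group. The heat map of the 55 rows shows this block between eggs and late embryos.

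The core of this block is a tandem array of 12 copies, Obox4-ps12 to Obox4-ps23 (on chromosome 7, 15139546 to 15265656, plus strand), whose starts lie 11079 to 11369 bases apart. Their annotated transcripts are 99.3% to 100% identical, and those of Obox4-ps19, Obox4-ps20 and Obox4-ps21 are the same over all 1140 bases. The stretch of 80 bases that varied most among these copies and Obox4-ps28 is printed for 4 of them to show how little tells the copies apart, with capitals at the 5 positions that vary.
Obox4-ps23: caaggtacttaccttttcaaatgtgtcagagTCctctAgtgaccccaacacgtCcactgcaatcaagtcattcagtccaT
Obox4-ps17: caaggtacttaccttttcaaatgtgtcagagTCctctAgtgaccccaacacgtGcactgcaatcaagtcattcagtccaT
Obox4-ps14: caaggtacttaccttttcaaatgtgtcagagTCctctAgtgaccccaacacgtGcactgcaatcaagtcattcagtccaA
Obox4-ps15: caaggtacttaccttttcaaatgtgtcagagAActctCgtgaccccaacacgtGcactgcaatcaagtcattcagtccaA

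The first of these stretches is shared by 9 of the 13 copies compared. The 3 copies with the same transcript had unequal read counts in all 14 early libraries, with a median variance-to-mean ratio of 2.40. The rows also cover introns, which were not compared, so how reads were placed among the copies is not known. The value of any copy is uncertain. The array is therefore given as a sum of its 12 rows. The sum was 0.568, 0.411 and 0.854 FPKM in WT eggs and 0.261, 0.0640 and 0 in eggs labelled KO. In WT early embryos it was 69.0, 46.8, 214, 76.0, 256, 294, 279 and 137 FPKM for libraries 1 to 8, and in MZ-KO early embryos it was 75.0, 95.6, 59.5, 136, 58.6 and 78.5. Late embryos had 0.830 to 3.91 in WT and 0.133 to 5.48 in MZ-KO. Every early library lay far above every egg and every late library.

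Within WT early embryos libraries 1 and 4, at 69.0 and 76.0, lay within the range of the MZ-KO embryos and library 2, at 46.8, lay below it. The mean of the 8 WT sums was 171 ± 101 FPKM (SD), and that of the 6 MZ-KO sums was 83.8 ± 28.8. All 12 copies rose from egg to early embryo, by 3.31 to 3.91 in WT (adjusted p from 2.49e-05 to 0.000311, limma) and by 2.76 to 3.18 in the labelled mutants. All 12 fell again from early to late embryo, by 3.23 to 3.76 in WT (adjusted p from 1.65e-08 to 1.24e-06, limma) and by 2.56 to 3.04 in MZ-KO.

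**Figure D3:**
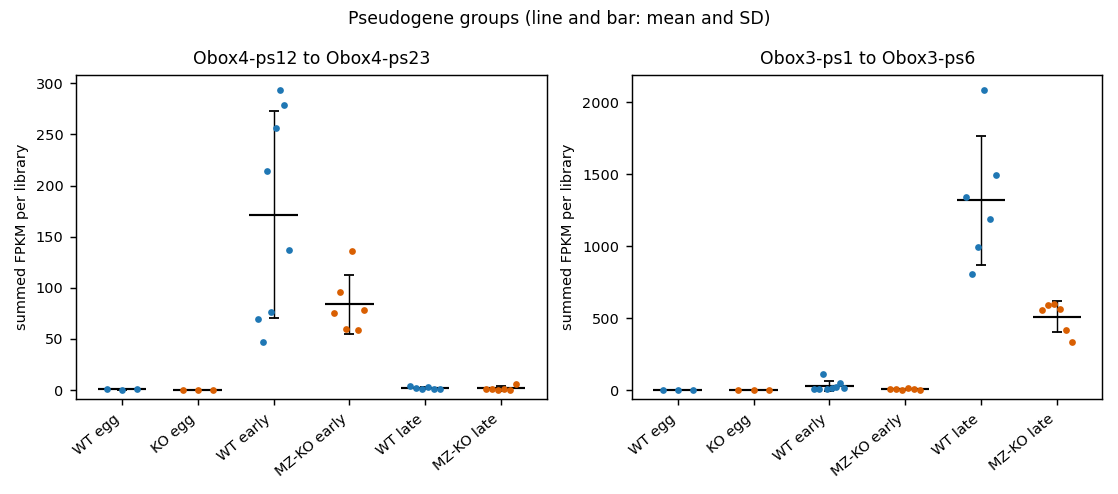
Summed FPKM per library of the 12 rows Obox4-ps12 to Obox4-ps23 (left) and of the 6 rows Obox3-ps1 to Obox3-ps6 (right), with points for libraries and black lines and bars for mean and SD. The Obox4 array is above 10 FPKM in early embryos only, where WT libraries spread from 46.8 to 294, and the Obox3 pseudogenes are high only in late embryos, where the WT values lie above the MZ-KO values.

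Obox4-ps27, Obox4-ps28 and Obox4-ps29 lie outside the array, inside the Obox1 row, and had the same order of stages. Obox4-ps28 was the highest Obox4 pseudogene in early embryos. It was at 2.22, 0.0470 and 0.139 FPKM in WT eggs, at 6.95 to 57.8 in WT early embryos (median 35.8), at 9.01 to 25.7 in MZ-KO early embryos (median 12.3) and at 0.0240 to 1.1 in late embryos. It rose by 4.05 (SE 0.64, adjusted p = 0.000311, limma) and fell by 4.37 (SE 0.42, adjusted p = 9.1e-08, limma) in WT. Obox4-ps27 (5.32 to 40.3 FPKM in WT early embryos) and Obox4-ps29 (4.13 to 36.6) rose by 3.38 and 3.30 and fell by 4.02 and 3.84. In the array Obox4-ps23 had the highest WT early mean (19.5 ± 13.3, SD, n = 8), and the means of the other 11 copies lay between 11.9 (Obox4-ps12) and 15.3 (Obox4-ps18), closer together than the spread of any copy over libraries.

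Obox4-ps33 differed from the array in that it was also present in eggs. It was at 3.29, 3.30 and 2.56 FPKM in WT eggs and 3.38, 3.41 and 3.08 in eggs labelled KO. WT early embryos had 3.86 to 13.8 (median 5.42) and MZ-KO early embryos 1.75 to 3.40 (median 2.59), with no overlap. Late embryos had at most 1.28. The rise from WT egg to WT early embryo was 0.74 (adjusted p = 0.0453, limma), which was lost without a filter (adjusted p = 0.135) and without any of the 3 WT eggs (0.0910 to 0.151) or WT early library 1, 2, 4, 7 or 8 (0.0519 to 0.0622).

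The 6 pseudogenes Obox3-ps1 to Obox3-ps6 were members of the late group. Their annotated transcripts are 95.9% to 99.5% identical to each other and 95.9% to 98.8% identical to that of Obox3, so reads may also pass between them and Obox3. Their summed level was 0 to 0.834 FPKM in the 6 eggs and 4.33 to 111 in WT early embryos (median 16.5), where library 3 was the highest. It was 0.449 to 12.3 in MZ-KO early embryos, 807 to 2088 in WT late embryos (median 1267) and 336 to 596 in MZ-KO late embryos (median 558). Late WT and late MZ-KO values did not overlap.

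Obox3-ps5 was the highest of them, at 1.70 to 68.8 FPKM in WT early embryos (median 5.42) and 291 to 744 (median 428) in WT late embryos. MZ-KO embryos had 0.0280 to 3.8 and then 111 to 207 (median 195). It rose by 5.81 (SE 0.64, adjusted p = 4e-07, limma) from WT early to WT late embryo and by 6.27 (SE 0.38) in MZ-KO. Obox3-ps2 rose by 6.69 in WT, to 127 to 422 FPKM. Obox3-ps3 rose by 6.17 (to 97.5 to 221), Obox3-ps6 by 5.88 (to 145 to 397), Obox3-ps4 by 5.67 (to 103 to 200) and Obox3-ps1 by 4.24 (to 44.6 to 104). From egg to early embryo in WT, Obox3-ps5 (2.80), Obox3-ps6 (1.84) and Obox3-ps1 (1.74) were called higher, and all 3 calls were lost without a filter (adjusted p = 0.0721, 0.0574 and 0.137). They were also lost without WT egg library 1 (0.0656, 0.0587 and 0.121), and those of Obox3-ps5 and Obox3-ps1 without WT egg library 2 or 3 (0.0516 to 0.116). The call of Obox3-ps1 was further lost without WT early library 3, 5, 6, 7 or 8 (0.0504 to 0.0644).

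Obox4-ps35 had the late pattern and not that of the other Obox4 pseudogenes, and its transcript is 76.3% to 76.9% identical to those of the array. It was listed at 0 in all 6 eggs and was at 0 to 3.76 FPKM in WT early and 0 to 1.09 in MZ-KO early embryos. Late embryos had 22 to 61.8 in WT (median 32.3) and 7.57 to 9.69 in MZ-KO (median 8.35), again without overlap. It rose by 4.09 (SE 0.35, adjusted p = 2.27e-08, limma) in WT and by 3.02 (SE 0.18, adjusted p = 1.92e-09, limma) in MZ-KO. It lies between Obox5, on the plus strand, and Obox6, on the minus strand like itself.

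**Figure D4:**
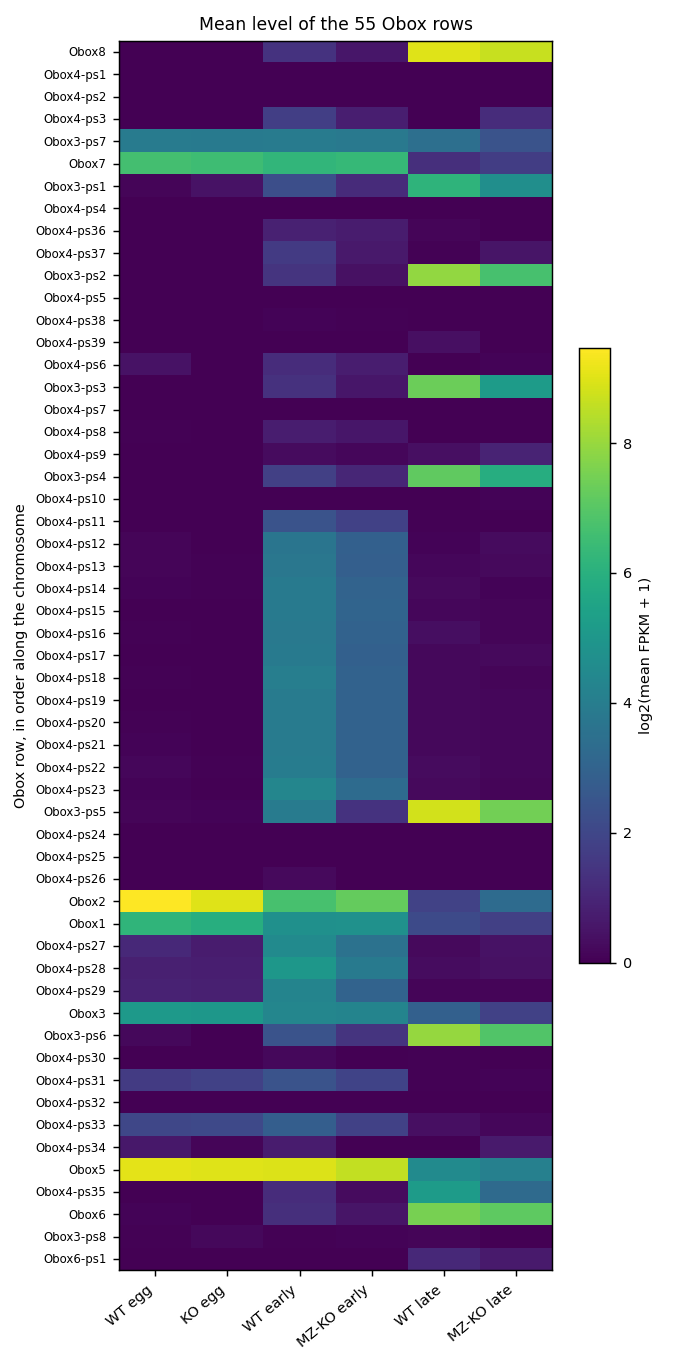
Heat map of log2(mean FPKM + 1) for all 55 Obox rows (in order along chromosomes 7 and 17) in the 6 groups, with dark cells for low and yellow cells for high levels. Obox2, Obox5 and Obox7 are high in eggs, Obox4-ps11 to Obox4-ps23 and Obox4-ps27 to Obox4-ps29 in early embryos, and Obox6, Obox8 and Obox3-ps1 to Obox3-ps6 in late embryos.

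Over the whole family, 37 of 55 rows reached a group mean of 1 FPKM and 7 were listed at 0 in every library. From WT egg to WT early embryo 37 rows passed the filter on low values, and 20 were called higher and 4 lower (limma). Of all 8619 genes tested, 51.3% were called, 30.4% higher and 20.9% lower. The 20 were 17 Obox4 and 3 Obox3 pseudogenes, and the 4 were Obox1, Obox2, Obox3 and Obox7. The median difference was 1.74 over the 37 rows and 0.15 over all genes. From WT early to WT late embryo 33 rows passed, 9 of them called higher and 24 lower, where 85% of all 9319 genes were called, 46.6% higher and 38.4% lower. The 9 were Obox6, Obox8, Obox4-ps35 and Obox3-ps1 to Obox3-ps6. The labelled mutants gave 16 higher and 4 lower of 28 rows at the first step, where 49.2% of 8305 genes were called, 29.2% higher and 20% lower. At the second step they gave 9 higher and 24 lower of 33, where 81.7% of 8944 genes were called, 48.3% higher and 33.3% lower. A row that passed only through the stage where it is high had to differ, so these counts describe the rows and support nothing further.

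In eggs, none of the 8 Obox rows that passed the filter was called between the labelled genotypes (limma), where 0.333% of 6607 genes were called, 0.212% higher and 0.121% lower. None had an unadjusted p below 0.05. The differences ranged from -0.43 for Obox2 (95% interval -0.93 to 0.06) to 0.29 for Obox4-ps31. The Obox2 values did not overlap, at 602 to 905 FPKM in 3 WT eggs and 479 to 563 in 3 labelled KO. For Obox5 the interval was -0.49 to 0.35 and for Obox7 -0.52 to 0.33.

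In early embryos 1 of 31 rows was called, Obox4-ps33, which was lower in MZ-KO by 0.93 (SE 0.21, adjusted p = 0.0291, limma). Of all 7675 genes tested 3.28% were called, 0.704% lower and 2.58% higher. The call was lost without a filter (adjusted p = 0.136) and without MZ-KO early library 2, 3 or 5 (0.0692, 0.0568 and 0.0544). Of the 31 rows 28 had a lower mean log2 level in MZ-KO, among them all 21 Obox4 pseudogenes that passed, with a median of -0.72 over the 31 against 0.05 over all genes. For the 12 copies of the array the differences were -0.89 to -0.63 (adjusted p from 0.131 to 0.377, limma). These rows may share reads, so they are not 12 independent results. Without WT early library 2, Obox4-ps18 was called lower as well (-1.07, adjusted p = 0.0485, limma). Obox2 was at a higher mean in MZ-KO (0.53, 95% interval 0.19 to 0.87, adjusted p = 0.0782, limma) and Obox5 at a lower one (-0.34, interval -0.61 to -0.07, adjusted p = 0.147, limma), and neither passed the threshold.

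In late embryos 8 of 15 rows were called lower in MZ-KO and none higher (limma), where 31.9% of 8772 genes were called, 13.4% lower and 18.5% higher. The 8 were Obox3-ps1 to Obox3-ps6, Obox4-ps35 and Obox3. The Obox3 row contains Obox3-ps6, and reads may pass between the Obox3 pseudogenes and Obox3, so these are not 8 independent results. Obox3-ps3 differed most. It measured 23.3 to 52.6 FPKM in MZ-KO (mean 35.2 ± 12.4, SD, n = 6) and 97.5 to 221 in WT (mean 159 ± 44.5). The log2 difference was -2.17 (SE 0.25, adjusted p = 9.38e-05, limma). Obox4-ps35 was lower by 1.85 (SE 0.22, adjusted p = 0.000131, limma), and Obox3-ps1 (-1.57), Obox3-ps5 (-1.36), Obox3-ps4 (-1.28), Obox3-ps2 (-1.20) and Obox3-ps6 (-1.06) followed. The Obox3 row was lower by 1.05 (SE 0.22, adjusted p = 0.00375, limma) as deposited. The genotypes did not overlap for Obox3-ps1, Obox3-ps3, Obox3-ps4, Obox3-ps5, Obox3-ps6 and Obox4-ps35, and they overlapped for Obox3-ps2 (62.6 to 145 FPKM in MZ-KO, 127 to 422 in WT) and narrowly for the Obox3 row (1.60 to 4.19 in MZ-KO, 4.18 to 10.4 in WT). Of the other 7 rows, Obox3-ps7 had a difference of -0.97 and did not pass the threshold.

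**Figure D5:**
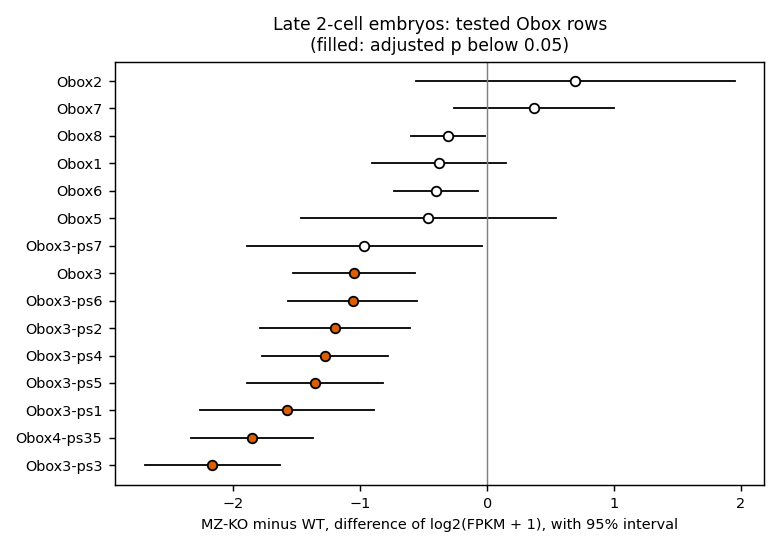
Differences of log2(FPKM + 1) between MZ-KO and WT late 2-cell embryos for the 15 Obox rows that passed the filter, with points for the limma estimates and lines for 95% intervals. The filled points, called at an adjusted p below 0.05, are Obox3, Obox4-ps35 and Obox3-ps1 to Obox3-ps6, all to the left of 0, and Obox6 and Obox8 lie between them and 0.

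Obox6 and Obox8, which stayed below 10 FPKM before the late stage, did not pass the threshold. Obox8 averaged 402 ± 17.7 FPKM in MZ-KO against 505 ± 96.2 in WT (SD, n = 6 each), and its log2 difference was -0.31 (95% interval -0.60 to -0.01, adjusted p = 0.101, limma). Obox6 averaged 137 ± 25 in MZ-KO against 181 ± 28.9 in WT, and its log2 difference was -0.40 (interval -0.74 to -0.07, adjusted p = 0.0605, limma). The genotypes overlapped for both genes, and both passed the threshold when WT late library 1 was left out (adjusted p = 0.0289 for Obox8 and 0.0464 for Obox6). Obox6 also passed without MZ-KO late library 3 (0.0417). In the authors' deposited table both genes were called in this comparison, with log2 fold changes of WT over MZ-KO of 0.54 for Obox8 (adjusted p = 0.0105) and 0.61 for Obox6 (adjusted p = 0.0147). The remnants of the egg-expressed genes did not pass, with intervals of -0.56 to 1.95 for Obox2, -1.47 to 0.54 for Obox5 and -0.26 to 1.00 for Obox7. MZ-KO late library 1 held the highest values of Obox2 (36 FPKM, next 8.29), and without it the Obox1 row was called lower (-0.58, adjusted p = 0.0414, limma).

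Other measures moved with the late comparison. The summed level of 6 late 2-cell markers (Eif1a, Zfp352, Hspa1b, Alppl2, Nop58 and Klf5) was 202 to 522 FPKM in MZ-KO and 857 to 1084 in WT late embryos, without overlap, and all 6 markers reached FPKM 1 in both. The sum does not show which markers differed, and Eif1a and Zfp352 were not among the genes called between the late genotypes (limma). The summed level of 6 blood and immune markers was 15.6 to 78.4 in MZ-KO and 7.16 to 14.7 in WT, where 3 reached FPKM 1 and Ptprc was at 0 in both, with Hbb-bs also at 0 in MZ-KO. For 7 sperm markers it was 7.60 to 13.5 and 10.2 to 28.7, with Smcp at 0 in both and Tnp2 also in MZ-KO. The part of stage or of other cells in the Obox differences was not tested. In whole embryos, fewer cells with a transcript and less of it per cell cannot be told apart.

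The genotype difference itself was compared between neighbouring stages. Between early embryos and eggs it was called for 0 of 38 rows (limma), where 0.351% of 9676 genes were called, 0.217% higher and 0.134% lower, and 2 rows had an unadjusted p below 0.05. Between late and early embryos it was called for 2 of 36 rows, both lower, where 20.4% of 11558 genes were called, 8.4% lower and 12% higher. These were Obox3-ps3 (-1.56, SE 0.46, adjusted p = 0.0181, limma) and the Obox3 row (-0.97, SE 0.25, adjusted p = 0.00681, limma). In WT early embryos the Obox3 row averaged 3129 RPM and the reads of the Obox1 row outside other members 3182. In WT late embryos these means were 1043 and 131 RPM. The contrast for the Obox3 row thus sets late reads against early reads that are mostly shared with Obox1, and is not one of Obox3 alone. With a pseudocount of 0.1 the difference for Obox3-ps3 was -0.92 (adjusted p = 0.526), so that call depends on how low early values are treated. For the other Obox3 pseudogenes the late genotype difference was not shown to exceed the early one.

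Other homeobox genes of the egg and early embryo gave a reference. Of 70 listed genes, 68 were in the table and 16 were tested from WT egg to WT early embryo, 10 called higher and 1 lower, where 30.4% and 20.9% of all genes were called. Only 8 of the listed genes passed the filter in the egg comparison. Genes that entered through the early embryos alone had to rise, so this count too describes the genes only. The largest rises were in the double-homeobox genes Duxbl1 (1.96), Duxbl2 (1.95) and Duxbl3 (1.91). The levels of these 3 rows were close to each other in every group. Whether they share reads was not tested, so they may not be 3 independent results. From WT early to WT late embryo 6 of 15 were called higher and 8 lower, close to the 85% of all genes called at this step. Crxos rose by 5.14, to 30.4 to 53.2 FPKM, whereas Nobox, an oocyte regulator, fell by 4.69 and the pluripotency gene Pou5f1 by 3.27. In late embryos Crxos (-0.52, adjusted p = 0.016) and Lbx2 (-1.18, adjusted p = 0.0236) were lower and Mixl1 (0.78, adjusted p = 0.0487) was higher in MZ-KO, of 14 tested (limma), where 31.9% of all genes were called. Mixl1 was low and its groups overlapped, at 0.061 to 2.715 FPKM in WT and 0.897 to 2.721 in MZ-KO late embryos. In eggs and early embryos none of 8 and none of 13 was called. Of 30 genes that are among the first to be activated in 2-cell embryos, 18 of 25 tested rose from WT egg to WT early embryo, where 30.4% of all genes were called higher. Only 3 of these genes passed the filter in the egg comparison. Most entered through the early embryos and had to rise, so this count describes the genes and supports nothing further. In late MZ-KO embryos 13 of 26 were lower and 1 higher, where 13.4% and 18.5% of all genes were called, with a median of -1.06 against 0.07 over all genes, beside -1.05 over the 15 Obox rows.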

How the data were processed

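Values were the authors' deposited FPKM table, in which reads are set against the genomic span of a gene and the depth of the library, as whole-read steps of low values showed. Per the submitters' processing notes, TopHat2, DESeq, DESeq2 and build mm10 were used, with versions not given in the sources used here. A log2 fold change with its p-value stands in the authors' deposited table (its correlation across genes with the late WT over MZ-KO ratio of FPKM was 0.9995) and was used for that check and for Obox6 and Obox8. Libraries were numbered in column order, since their columns name only the group. The members and gene lists were chosen with earlier results of these data known. Members described singly were all coding rows, the 6 highest pseudogenes and the 4 largest called rises and falls per comparison; other homeobox genes were named if called between genotypes or among the 3 largest WT stage differences. Differences of log2(FPKM + 1) were tested with limma 3.58.1 (trend, robust; R 4.3.3, statmod 1.5.0) on genes that reached FPKM 1 in a number of libraries equal to the smaller group, with Benjamini-Hochberg adjustment over all genes tested. The pseudocount understates changes of low genes. On data simulated for the late genotype comparison (8426 genes), 51% of changes of 1 and 92% of changes of 2 on the log2 scale were recovered. The simulation changed 100 genes by each amount, all with a mean log2 level above 3. In the data 31.9% of genes were called, so these shares do not measure recovery in the real comparison or for low genes. Of the 55 rows, 10 overlap another annotated gene. Transcripts (GENCODE release M21) were aligned with biopython 1.88 and mafft 7.526. Alternatives were another pseudocount, other filters, median-ratio scaling, a fit over all groups, rows without overlap and leaving out each library.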

Additional observations from a re-analysis of the deposited data

Results flagged for a closer look

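The described members gave 67 sets of values (groups of 6 or 8 libraries with a mean of at least 1 FPKM). Of these, 10 had a highest library that lay far from the others by Dixon's 95% criterion. By chance that criterion flags about 5% of independent sets with a normal spread. The sets here come from the same libraries and from rows that overlap or may share reads, so the 10 cannot be weighed against it. WT early library 3 was the highest for Obox8 (8.32 FPKM, next 1.88), Obox6 (5.80, next 1.72), Obox3-ps5 (68.8, next 23.2), Obox3-ps6 (17.4, next 4.95) and Obox4-ps33 (13.8, next 6.16). The first 4 of these are members whose level is highest in late embryos. MZ-KO late library 1 was the highest for Obox2 (36 FPKM, next 8.29) and for the overlapping rows Obox1 (5.49, next 2.50) and Obox3 (4.19, next 2.56). MZ-KO early library 4 was the highest for Obox4-ps28 (25.7 FPKM, next 13) and Obox4-ps23 (18.7, next 8.51), which share near-identical sequence. The genotype difference was more negative in late than in early embryos for Obox3-ps3 (-1.56) and for the Obox3 row (-0.97). Reads of the Obox1 row outside other members nearly equalled those of the Obox3 row in eggs and early embryos. In late embryos their means were 131 against 1043 RPM in WT and 142 against 412.5 in MZ-KO.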

How the results depend on the processing

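No paired analysis was possible because the columns carry no replicate number. In all other settings run, the count of called Obox rows stayed within 1.5 times the count reported, except as follows. From MZ-KO early to late embryo a filter at FPKM 5 gave 21 calls in place of 33. Between early genotypes, where 1 row was called, the filter at FPKM 5 and no filter gave 0 and the fit over all 6 groups gave 2; leaving out a library gave 0 to 2. For the genotype difference between late and early embryos, where 2 rows were called, a pseudocount of 0.1 and rows without overlap gave 1, median-ratio scaling and the fit over all groups gave 4, and leaving out a library gave 2 to 4. The cause was not tested. Leaving out each library gave 19 to 27 calls from WT egg to early embryo, 32 to 35 from WT early to late, 19 to 22 and 33 in the labelled mutants, 0 in eggs and 8 to 10 in late embryos. No called member changed direction in any setting run. Summed over the coding genes, WT late embryos were at 49.8% of WT eggs in FPKM and 13.6% in recovered reads, and for the Obox4 pseudogenes WT late embryos were at 14.7% of WT early embryos in FPKM and 44.5% in reads. FPKM and reads weight rows of different span differently, and the coding sums count reads shared by the Obox1, Obox2 and Obox3 rows more than once. A change of 1 on the log2 scale was often below what eggs could show, since 44% of such changes were recovered in data simulated for that comparison (6332 genes). Low genes were not changed in that simulation, so the share does not cover them.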
